A study of Mus musculus with 5 samples.

Results

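Tofacitinib and Compound C were compared by subtracting the log2 signal of the Compound C array from that of the tofacitinib array, gene by gene. Of 22180 genes with a probe set of their own, 12317 entered the comparison, because at least 1 of their 5 array values reached the median of that array. The other 9863 genes were dimmer on every array. All 5 samples were mouse embryonic fibroblasts, labelled as primary cells, that carried the STING-/- genotype and had been reconstituted with the R284S variant of STING, an activating form of the adaptor that links cytosolic DNA sensing to interferon. The cells, grown in DMEM with FBS, received tofacitinib, Compound C, GSK 690693, doxorubicin or vehicle for 9 hours, and 300 ng of total RNA from each went onto 1 whole-transcript array. The labels describe the treatments together as AMPK inhibitors. The sources used here give no dose and do not say how the variant was introduced or whether the cells were a pool or a clone. Each treatment is 1 array, so no difference below has an error, a replicate check or a test, and all values are log2 signal unless stated otherwise. A difference, where no other arrays are named, is tofacitinib minus Compound C.

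Tofacitinib inhibits the Janus kinases, which sit on the cytoplasmic tails of interferon and IL-6 family receptors and phosphorylate STAT factors. Phosphorylated STAT factors then switch on interferon-stimulated genes, and STAT3 switches on acute-phase genes together with its own feedback inhibitors of the SOCS family. Compound C, also called dorsomorphin, is an ATP-competitive inhibitor of the energy-sensing kinase AMPK that also blocks BMP type I receptors, whose SMAD signal drives the Id genes and the inhibitory SMADs. In cells with an activating STING variant, interferon-stimulated genes can be induced by interferon acting through JAK kinases and also more directly by IRF3.

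The median over the tested genes was 7.16 on the Compound C array and 7.39 on the tofacitinib array, and 7.16 to 7.29 on the other arrays. Fibroblast identity was checked with 14 markers, of which 13 or 14 reached the array median on each array, with a summed signal of 14.61 to 14.77. Of 14 macrophage and leukocyte markers, 11 failed the filter, and the summed signal was 8.78 to 9.19. Endothelial, epithelial, muscle and adipocyte, and neural markers summed to between 8.61 and 9.31, with at most 6 members of a list at the array median. Among the fibroblast markers, Pdgfrb, the beta receptor for platelet-derived growth factor, read 8.66 with Compound C and 9.81 with tofacitinib, and Col1a1 read 10.66 and 11.09. The Sting1 probe set read 5.07 to 5.25, below the filter, and the sources used here do not say whether it detects the introduced variant.

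Tofacitinib read at least 2-fold higher than Compound C for 561 genes, 4.55% of those tested, and at least 2-fold lower for 187, or 1.52%. The median difference over all tested genes was 0.08 and its standard deviation 0.5, against 0.258 between tofacitinib and GSK 690693, the closest pair of arrays. Higher genes were 75% of the 748 that passed 2-fold. That share depended on scaling, since it was 41.4% (252 higher and 356 lower) when each array was centred on its median, which shifts every difference by 0.23, and 59.1% (359 and 248) after quantile normalization. For this reason gene lists are read below against the median of all tested genes, a distance that centring leaves as it is. At the threshold itself, 22 genes lay just inside at 1.0 and 14 just outside at 0.99, and on the lower side 7 lay at -1.0 and 5 at -0.99. A difference in a culture can come from fewer cells of a kind or from less RNA per cell, and the arrays cannot tell these apart.

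**Figure D1:**
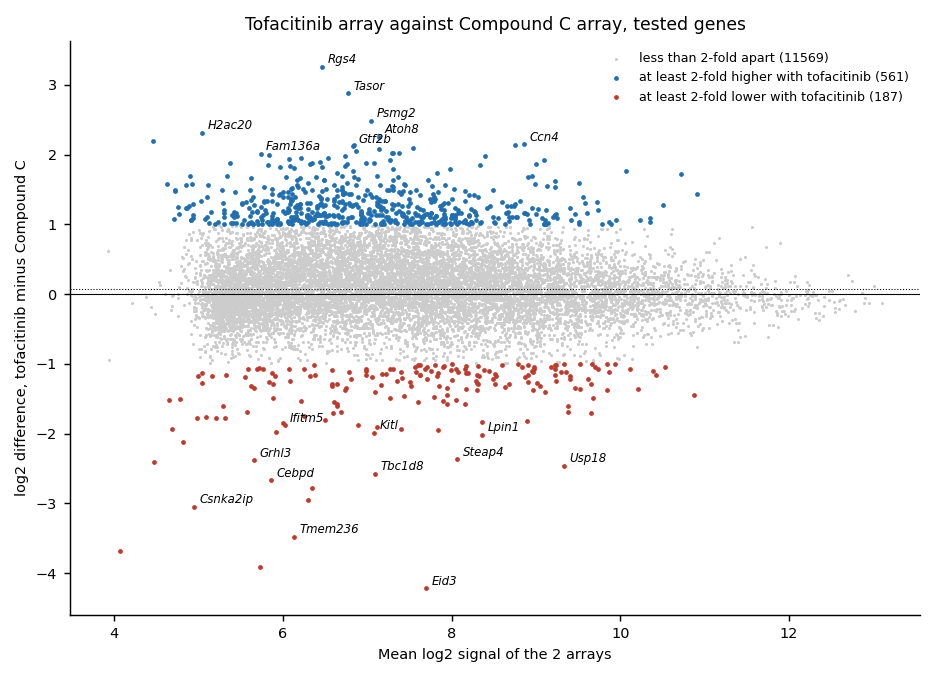
Each point is 1 of the 12317 tested genes, with the mean log2 signal of both arrays on the x axis and the log2 difference, tofacitinib minus Compound C, on the y axis. Blue points are the 561 genes at least 2-fold higher and red points the 187 at least 2-fold lower with tofacitinib, and the dotted line is the median difference of 0.08. Centring each array on its median would lower every point by 0.23. The lowest labelled gene is Eid3 at -4.22 and the highest is Rgs4 at 3.26.

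The vehicle array, which enters the filter on dim genes but not the difference, lay within 0.5 of tofacitinib and farther than that from Compound C for 594 of the 748 genes, or 79.4%, made up of 453 higher and 141 lower genes. That count depended on the distance taken as near, since within 0.25 it was 305, and vehicle then lay between the compounds for 379 genes, the larger class. Over all tested genes, 91.4% read within 0.5 of vehicle with tofacitinib and 77.9% with Compound C. Vehicle lay within 0.5 of Compound C alone for 46 genes, or 6.15%, of which 26 were higher and 20 lower with tofacitinib. It lay between the arrays for 95 genes and outside both for 13. Against the vehicle array that both share, tofacitinib passed 2-fold upward for 6 genes (0.0487%) and downward for 51 (0.414%), and Compound C for 160 (1.3%) and 311 (2.52%).

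**Figure D2:**
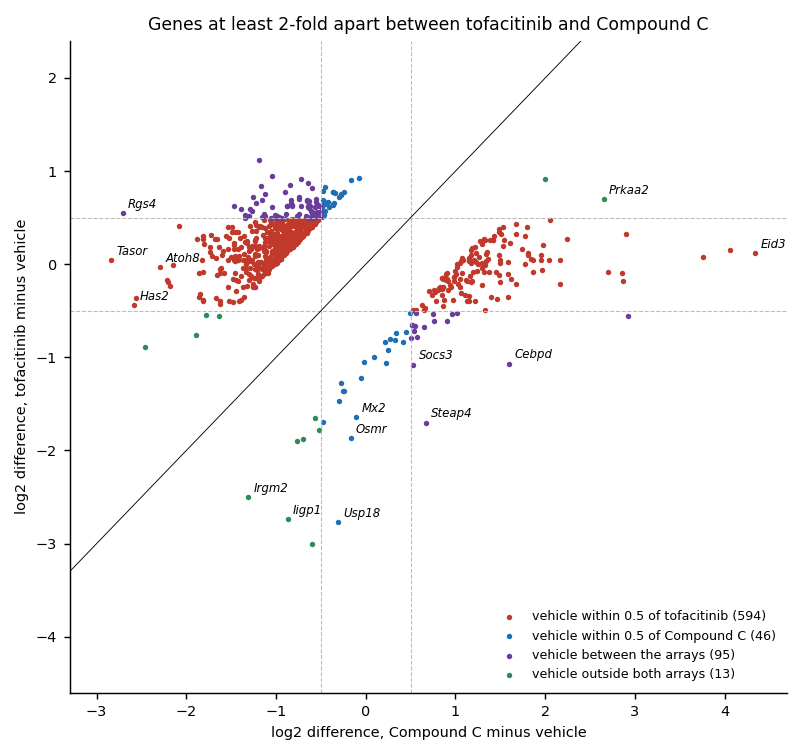
The 748 genes at least 2-fold apart are plotted by their log2 difference from vehicle, with Compound C on the x axis and tofacitinib on the y axis, and on the diagonal line the compounds would read the same. Colours give the place of the vehicle array, and dashed lines mark 0.5 from vehicle. The 594 red points lie in the horizontal band where tofacitinib was near vehicle. Usp18, Osmr and Mx2 (blue) and Iigp1 and Irgm2 (green) lie low, where tofacitinib read far below vehicle.

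On the JAK-STAT pathway list, Osmr and Stat2 were the tested members for which tofacitinib read more than 0.5 from vehicle while Compound C lay within 0.5 of it. Of 37 genes on the list, 33 were tested, 11 were lower with tofacitinib than with Compound C by 1.5-fold or more and 3 were higher, where 5.5% and 15.3% of all tested genes were. The list median was -0.25 beside 0.08 for all tested genes. Against vehicle, its median was -0.04 with tofacitinib and 0.27 with Compound C, so for the typical member Compound C was the array that lay above.

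Among the receptors, Osmr, the oncostatin M receptor chain, read 8.80 with tofacitinib and 10.50 with Compound C, beside 10.67 in the vehicle sample, 10.53 under GSK 690693 and 10.72 under doxorubicin. The other 4 arrays lay close together, and tofacitinib minus Compound C was -1.70, or 3.25-fold. Il6ra, which encodes the IL-6 binding receptor chain, gave a different pattern. It read 8.59 under Compound C and 7.52 under tofacitinib, while vehicle gave 7.59, GSK 690693 7.89 and doxorubicin 7.96, so that its difference of -1.07 lay on the Compound C side. The kinase gene Jak1 read 10.30 with tofacitinib and 10.54 with Compound C, with vehicle at 10.26.

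Stat2, a subunit of the interferon-activated ISGF3 complex, read 10.04 in vehicle cells, 8.82 with tofacitinib and 9.99 with Compound C, and 9.73 and 9.67 with GSK 690693 and doxorubicin, a difference of -1.17. Stat3, the factor downstream of IL-6 family receptors, read 9.84 on the tofacitinib array against 11.00 on that of Compound C, with vehicle at 10.49, doxorubicin at 10.45 and GSK 690693 at 10.59. Vehicle therefore lay between the compounds for Stat3, with tofacitinib minus vehicle at -0.65 and Compound C minus vehicle at 0.51. Stat6, which transmits IL-4 and IL-13 signals, stood on the other side, at 8.32 with Compound C, 9.27 with vehicle and 9.47 to 9.48 on the remaining arrays, for a difference of 1.15.

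Among feedback inhibitors and targets of STAT3, Cebpd, a transcription factor gene induced by STAT3, had the widest gap on the list. It read 4.52 with tofacitinib and 7.19 with Compound C, beside 5.59 in the vehicle sample, 5.86 under GSK 690693 and 4.36 under doxorubicin. Against vehicle, Compound C stood at 1.60 and tofacitinib at -1.07, and the gap of -2.67 was 6.36-fold, or -2.06 with 16 signal units added before the log. Socs3, the main feedback inhibitor of the IL-6 receptor signal, read 7.44 under Compound C and 5.83 under tofacitinib, while vehicle gave 6.91, GSK 690693 7.12 and doxorubicin 6.01, a difference of -1.61, and -0.83 on a dimmer probe set of the same gene. Steap4, a metalloreductase gene outside the list, read 8.58 in vehicle cells, 6.88 with tofacitinib and 9.25 with Compound C, and 8.21 and 9.76 with GSK 690693 and doxorubicin, a difference of -2.37. For Socs3 and Steap4, as for Cebpd, vehicle lay between the compounds. The kinase gene Pim1 differed by -1.10 and the feedback genes Socs2 and Cish by -1.10 and -0.68, whereas Bcl6, a transcriptional repressor gene, differed by 0.88. Socs1 read 5.73 with tofacitinib and 5.87 with Compound C, close to the array median. Il6ra, Stat6, Pim1, Socs2, Cish and Bcl6 were picked for description after their values were seen.

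**Figure D3:**
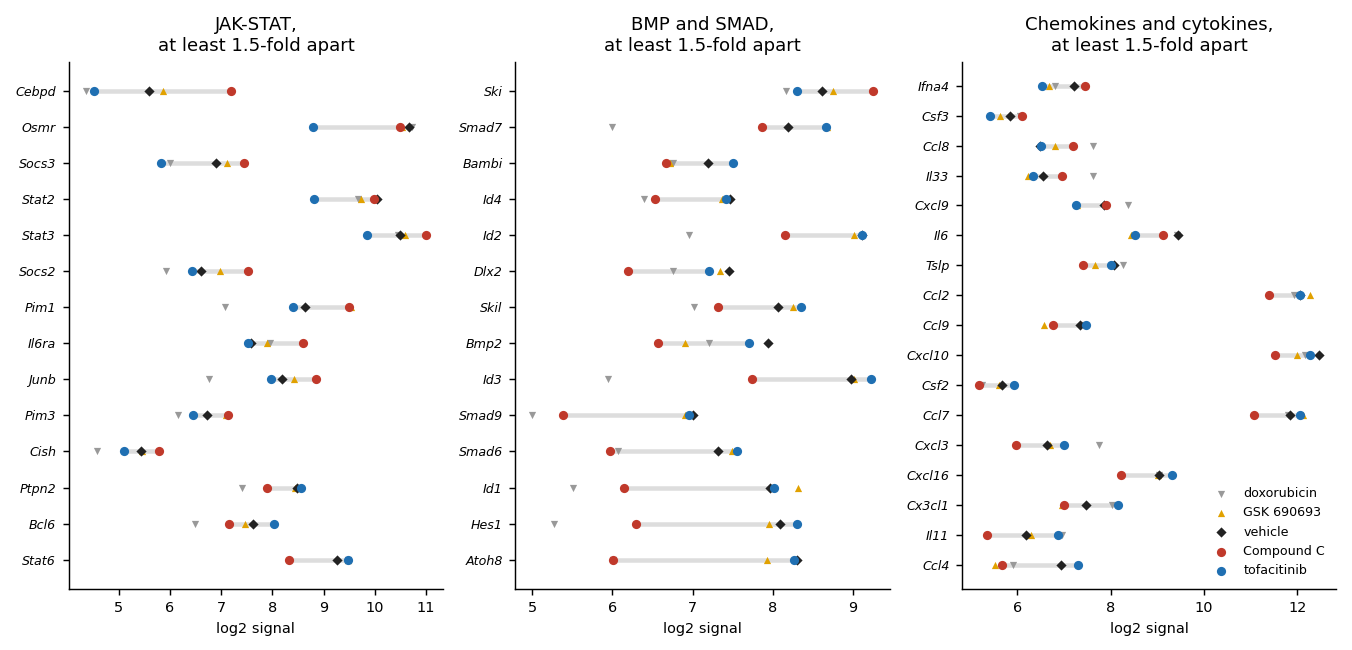
Log2 signal of every gene at least 1.5-fold apart between tofacitinib (blue circles) and Compound C (red circles) on the JAK-STAT list (14 genes), the BMP and SMAD list (14 genes) and the chemokine and cytokine list (17 genes), with vehicle as diamonds and the 2 other compounds as triangles. Grey bars join the compared arrays. Osmr and Stat2 have the blue circle alone at the left, and Atoh8, Hes1 and Id1 have the red circle far left of the vehicle diamond.

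Interferon-stimulated genes read below vehicle with both compounds, but not for the same members to the same extent. Of 84 genes on the list, 73 were matched and 68 tested, and their median difference from vehicle was -0.72 with tofacitinib and -0.46 with Compound C. It was -0.54 with GSK 690693 and -0.08 with doxorubicin, so reading below vehicle was not particular to the compared compounds. At least 1.5-fold below vehicle were 41 members with tofacitinib, where 2% of all tested genes were, and 27 with Compound C, where 9.99% were. Compared directly, 24 of the 68 members read at least 1.5-fold lower with tofacitinib and 8 higher, where 5.5% and 15.3% of all tested genes did, and the list median was -0.30. The lower members were thus a larger share of the list than of all genes, and the higher members a smaller one. Tofacitinib alone gave the lowest of the 5 values for 39 members, Compound C for 14 and GSK 690693 for 10, where over all tested genes these arrays were alone lowest for 10.9%, 28.7% and 14.7%.

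The 24 members on the lower side were picked by their gap to Compound C, which favours low tofacitinib and high Compound C values. Tofacitinib gave the lowest value of the 5 for each of them. Their median difference from vehicle was -1.33 with tofacitinib, -0.32 with Compound C and -0.60 with GSK 690693. Usp18, which encodes the ISG15 protease that also restrains the interferon receptor, read 8.10 on the tofacitinib array against 10.56 on that of Compound C, with vehicle at 10.87, doxorubicin at 10.84 and GSK 690693 at 10.25. Only tofacitinib read far below vehicle, and its difference from Compound C was -2.46, or 5.5-fold. Mx2, a dynamin-like antiviral GTPase gene, read 5.45 with tofacitinib and 6.98 with Compound C, beside 7.09 in the vehicle sample, 5.72 under GSK 690693 and 6.87 under doxorubicin, so GSK 690693 lay beside tofacitinib there. Irf9 and Eif2ak2, which encode the DNA-binding subunit of ISGF3 and the RNA-activated kinase PKR, differed by -0.89 and -1.12, and were picked after their values were seen.

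The immunity-related GTPase genes Iigp1 and Irgm2, which act against pathogens in vacuoles, read below vehicle with both compounds and lower with tofacitinib. Iigp1 read 7.83 under Compound C and 5.96 under tofacitinib, while vehicle gave 8.70, GSK 690693 7.08 and doxorubicin 8.53, a difference of -1.87. Irgm2 read 8.96 in vehicle cells, 6.46 with tofacitinib and 7.65 with Compound C, and 8.29 and 8.40 with GSK 690693 and doxorubicin, a difference of -1.19. Vehicle lay above both compounds for these genes, as it did for Oas1b and Ifi205, which were not on the list and differed by -1.18 and -1.26. Oas1b belongs to the oligoadenylate synthetase family and Ifi205 to the interferon-inducible p200 family.

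The 8 members on the higher side, whose number is no more than the share among all genes would give, were Oasl1, Apol9b, Apol9a, Rsad2, Cmpk2, Ifih1, Trim30a and Ifit1. Their median difference from vehicle was -1.48 with Compound C, -1.10 with GSK 690693 and -0.36 with tofacitinib. The lowest of the 5 values came from Compound C for 5 of them and from GSK 690693 for 3. Their choice by a gap above Compound C favours low Compound C values, and tofacitinib could not be the lowest. Oasl1, a member of the oligoadenylate synthetase family without the enzyme activity, read 10.00 on the tofacitinib array against 8.46 on that of Compound C, with vehicle at 10.12, doxorubicin at 9.26 and GSK 690693 at 8.54, a difference of 1.54. Rsad2, which encodes the antiviral enzyme viperin, read 10.39 with tofacitinib and 9.38 with Compound C, beside 10.77 in the vehicle sample, 9.04 under GSK 690693 and 10.46 under doxorubicin, a difference of 1.01. Its genomic neighbour Cmpk2, a nucleotide kinase gene, differed by 0.88, and Ifih1, the gene for the double-stranded RNA sensor MDA5, by 0.74. In each of these 4 genes Compound C and GSK 690693 lay low together, and tofacitinib lay nearer to vehicle than either. Ifit1, which binds foreign RNA caps, read 10.72 under Compound C and 11.32 under tofacitinib, while vehicle gave 11.61, GSK 690693 10.80 and doxorubicin 11.13. Apol9b differed by 1.31, but Apol9a and Apol9b are near-identical copies whose probe sets may read each other. Isg15, the ubiquitin-like modifier gene, differed by 0.22, which is less than the 0.23 that centring removes. Rsad2, Cmpk2, Ifih1, Trim30a and Apol9a fall outside the rule for named genes.

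**Figure D4:**
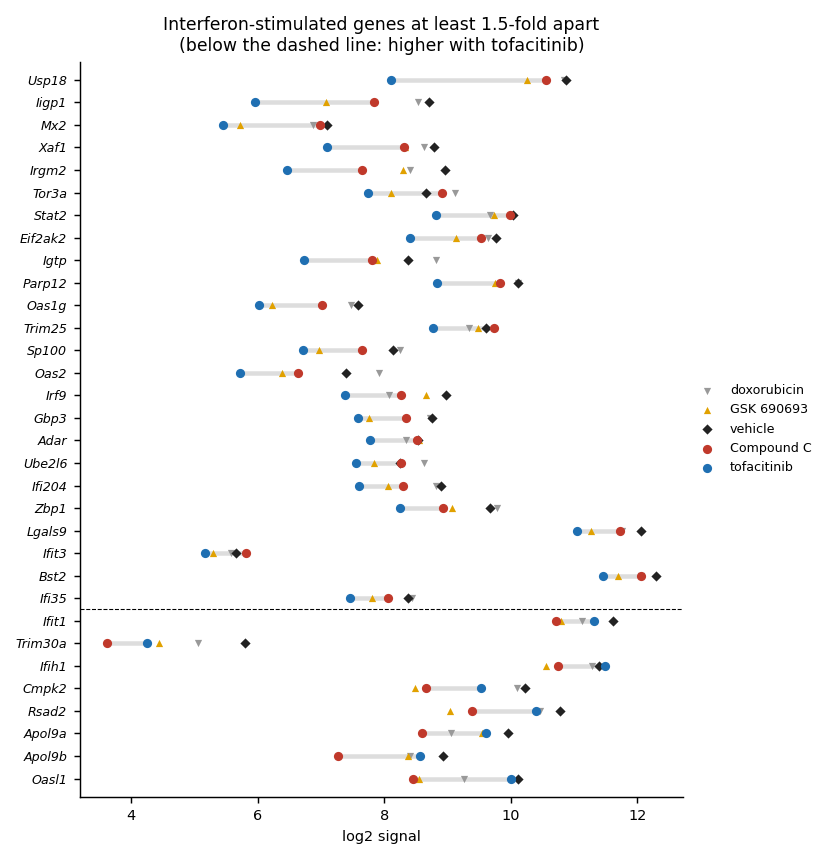
Log2 signal on the 5 arrays for the 32 interferon-stimulated genes at least 1.5-fold apart, with grey bars joining tofacitinib (blue circles) and Compound C (red circles), vehicle as diamonds and the 2 other compounds as triangles. Above the dashed line are the 24 genes lower with tofacitinib, in which the blue circle is the leftmost mark. Below it are the 8 genes higher with tofacitinib, in which the red circle or the GSK 690693 triangle is leftmost.

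Promoters from both sides are shown because ISGF3 and the IRF factors bind related elements, the interferon-stimulated response element with core GAAANNGAA among them. The sequences run from 250 bases before to 50 bases after the gene start, are credited to RefSeq on GRCm38.p6, and have each core match on either strand in capitals. Irgm2 and Stat2 read lower and Ifit1 and Rsad2 higher with tofacitinib.
Irgm2, chr11:58214727-58215026, plus strand: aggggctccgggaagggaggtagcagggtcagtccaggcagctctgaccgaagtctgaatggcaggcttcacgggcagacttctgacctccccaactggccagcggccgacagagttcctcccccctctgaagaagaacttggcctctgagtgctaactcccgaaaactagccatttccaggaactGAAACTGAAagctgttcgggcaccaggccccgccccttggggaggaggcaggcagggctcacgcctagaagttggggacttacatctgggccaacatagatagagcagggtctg
Stat2, chr10:128270248-128270547, plus strand: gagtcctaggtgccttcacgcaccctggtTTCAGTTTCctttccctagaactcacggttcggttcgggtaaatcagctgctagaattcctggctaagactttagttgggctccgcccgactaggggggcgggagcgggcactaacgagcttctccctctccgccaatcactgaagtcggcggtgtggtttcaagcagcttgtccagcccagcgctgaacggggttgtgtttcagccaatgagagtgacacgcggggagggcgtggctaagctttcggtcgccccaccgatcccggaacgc
Ifit1, chr19:34640639-34640938, plus strand: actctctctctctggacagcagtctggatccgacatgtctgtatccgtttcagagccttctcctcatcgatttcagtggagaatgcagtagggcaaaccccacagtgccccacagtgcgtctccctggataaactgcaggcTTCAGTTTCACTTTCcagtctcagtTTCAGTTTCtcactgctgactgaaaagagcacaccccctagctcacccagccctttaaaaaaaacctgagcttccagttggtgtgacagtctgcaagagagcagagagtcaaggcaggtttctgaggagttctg
Rsad2, chr12:26456403-26456702, minus strand: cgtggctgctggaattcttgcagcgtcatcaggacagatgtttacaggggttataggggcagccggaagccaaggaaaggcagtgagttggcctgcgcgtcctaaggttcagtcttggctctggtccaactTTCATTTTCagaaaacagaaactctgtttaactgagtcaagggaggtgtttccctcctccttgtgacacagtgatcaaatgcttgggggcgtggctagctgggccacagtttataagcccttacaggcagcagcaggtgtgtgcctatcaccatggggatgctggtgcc
The match began at position -64 from the start in Irgm2, -221 in Stat2 and -119 in Rsad2. Ifit1 held 3 matches, at -109, -103 and -84, of which the first pair overlap. A gene was counted if any of its RefSeq promoter entries held the core. Of 56 tested list members with an entry, 32 held it, or 57.1%, against 8.35% of the 9703 tested genes with an entry and 8.56% of all 32851 entries. On the lower side 11 of 17 members with an entry held it, and on the higher side 6 of 8, so the core was present on both sides.

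Chemokine and cytokine genes differed in both directions. Of 35 on the list, 29 were tested, 11 read at least 1.5-fold higher and 6 lower with tofacitinib, both larger shares than the 15.3% and 5.5% of all tested genes, and the list median was 0.24. Against vehicle the median was 0.01 with tofacitinib and -0.39 with Compound C. Ccl4, which encodes the chemokine MIP-1 beta, read 6.94 in vehicle cells, 7.30 with tofacitinib and 5.67 with Compound C, and 5.52 and 5.90 with GSK 690693 and doxorubicin, a difference of 1.63. Il11, an IL-6 family cytokine gene, read 6.87 on the tofacitinib array against 5.35 on that of Compound C, with vehicle at 6.18, doxorubicin at 6.95 and GSK 690693 at 6.29, a difference of 1.52. Cx3cl1, Cxcl16 and Cxcl3 differed by 1.14, 1.10 and 1.04. Compound C was at or near the bottom for these 5 genes, and it differed from vehicle by -1.27 to -0.47. Their choice by wide gaps favours such low values.

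The interferon-induced chemokine gene Cxcl10 read 12.26 with tofacitinib and 11.52 with Compound C, beside 12.47 in the vehicle sample, 12 under GSK 690693 and 12.16 under doxorubicin, a difference of 0.74. It thus lay with Ifit1 and not with Usp18 in the place of Compound C. Ccl5 read between 12.93 and 13.07 on all 5 arrays, near the highest value of any array, 13.18. Il6 ran the other way, at 9.13 under Compound C and 8.52 under tofacitinib, while vehicle gave 9.45, GSK 690693 8.43 and doxorubicin 9.41, a difference of -0.61. Ifnb1, the interferon beta gene, read 2.56 to 2.88 and did not pass the filter.

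BMP targets and SMAD feedback genes past 1.5-fold lay nearly all on one side, lower with Compound C than with vehicle or tofacitinib. Of 38 on the list, 31 were tested, 13 read at least 1.5-fold higher with tofacitinib and 1 lower, beside 15.3% and 5.5% of all tested genes. At 2-fold, 9 read higher and 0 lower, beside 4.55% and 1.52% of all tested genes. The list median of 0.32 lay 0.24 above that of all tested genes, just short of the 0.25 at which a list is called apart. Against vehicle the list median was 0.02 with tofacitinib, -0.32 with Compound C and -0.74 with doxorubicin. Compound C was thus not the only array on which these genes read low. The receptor genes differed less, and Acvr1, Acvrl1, Bmpr1a, Bmpr1b and Bmpr2, which encode type I and type II receptors, were all less than 1.5-fold apart, from -0.51 to 0.40. The ligand gene Bmp2 differed by 1.13. These receptor genes and Bmp2 were picked after their values were seen.

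Id1, an inhibitor of basic helix-loop-helix factors and a direct SMAD target, read 7.97 in vehicle cells, 8.02 with tofacitinib and 6.14 with Compound C, and 8.32 and 5.51 with GSK 690693 and doxorubicin, a difference of 1.88. Id3 read 9.23 on the tofacitinib array against 7.74 on that of Compound C, with vehicle at 8.98, doxorubicin at 5.94 and GSK 690693 at 9.02, a difference of 1.49. For both Id genes tofacitinib and GSK 690693 thus lay beside vehicle, while Compound C and doxorubicin lay low. The inhibitory SMAD gene Smad6 read 7.56 with tofacitinib and 5.97 with Compound C, beside 7.32 in the vehicle sample, 7.49 under GSK 690693 and 6.07 under doxorubicin, a difference of 1.59. Smad9, which encodes a BMP-activated SMAD, read 5.38 under Compound C and 6.95 under tofacitinib, while vehicle gave 7.0, GSK 690693 6.90 and doxorubicin 5.0, a difference of 1.57. Atoh8, a transcription factor gene induced by BMP, and Hes1, best known as a Notch target, differed by 2.26 and 2.02. Their Compound C values were 6.01 and 6.29, at -2.29 and -1.80 from vehicle. Their doxorubicin values were 6.01 and 5.27, at -2.29 and -2.82 from vehicle. Ski, a repressor of SMAD factors, was the member on the lower side, at -0.95, and was picked after its value was seen.

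The Smad9 promoter is shown because BMP-activated SMADs bind GC-rich elements with core GGCGCC, here in capitals, at position -51 from the start in the RefSeq GRCm38.p6 entry.
Smad9, chr3:54755332-54755631, plus strand: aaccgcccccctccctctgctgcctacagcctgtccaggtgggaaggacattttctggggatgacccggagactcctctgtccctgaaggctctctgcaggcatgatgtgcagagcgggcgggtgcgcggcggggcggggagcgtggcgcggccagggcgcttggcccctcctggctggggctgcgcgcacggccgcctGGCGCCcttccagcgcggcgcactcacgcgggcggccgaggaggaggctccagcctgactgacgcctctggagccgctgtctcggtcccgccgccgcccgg
The core occurred in 10 of 21 tested list members with an entry, or 47.6%, and in 4 of 7 of those at least 1.5-fold higher. It occurred in 24.5% of the tested genes with an entry and in 11.9% of all entries, counting both strands.

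Among AMPK subunits and the kinases around AMPK, 27 of 31 genes were tested, and 4 read at least 1.5-fold higher and 4 lower with tofacitinib, with a list median of 0.0. The higher count is near the 15.3% of all tested genes on that side and the lower count above the 5.5%. The catalytic subunit genes read in opposite order. Prkaa2 read 6.16 in vehicle cells, 6.86 with tofacitinib and 8.81 with Compound C, and 6.99 and 7.18 with GSK 690693 and doxorubicin, a difference of -1.95. Prkaa1 read 10.50 on the tofacitinib array against 9.97 on that of Compound C, with vehicle at 10.67, doxorubicin at 10.22 and GSK 690693 at 10.52, a difference of 0.53. Compound C was the highest array for Prkaa2 and the lowest for Prkaa1. The AMPK-related kinase gene Nuak1 differed by 1.68 and Sik1 by -1.07, and the autophagy kinase gene Ulk1, an AMPK substrate, by -0.67.

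Of 25 tested STING pathway genes, 3 read at least 1.5-fold higher and 4 lower with tofacitinib, where 15.3% and 5.5% of all tested genes did, and the median of 0.09 equalled that of all genes to within 0.01. Irf3, the factor that STING activates through TBK1, read 7.49 with tofacitinib and 6.42 with Compound C, beside 6.92 in the vehicle sample, 7.13 under GSK 690693 and 6.65 under doxorubicin, a difference of 1.07. Mavs, the adaptor of the RNA sensors, differed by 1.0, and Tbk1 by -0.16. The lower members included Usp18 and Insig1, which other lists also hold.

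The gene groups of cell division had the highest medians of the 24 lists. Of 65 tested mitosis genes, 40 read at least 1.5-fold higher with tofacitinib and 2 lower, against 15.3% and 5.5% of all tested genes, and the median was 0.76. For DNA replication and E2F genes, 26 of 60 read at least 1.5-fold higher and 0 lower, and the median was 0.56. With centring these medians would stand 0.23 lower and would still be above 0. Against vehicle the mitosis median was 0.28 with tofacitinib and -0.36 with Compound C, and the replication median 0.34 and -0.19. Vehicle thus lay between the compounds. With doxorubicin these medians were -0.41 and -0.2, so Compound C was not the only low array. Tofacitinib alone was the highest array for 48 mitosis genes and 42 replication genes, where it was alone highest for 17.6% of all tested genes. The tofacitinib array also had the highest median over the tested genes, 7.39 beside 7.22 with vehicle. Centring would therefore lower its distances from vehicle and could lower these counts.

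Plk1, a kinase that drives entry into mitosis, read 7.10 under Compound C and 8.49 under tofacitinib, while vehicle gave 8.30, GSK 690693 8.27 and doxorubicin 7.47, a difference of 1.39. Top2a, topoisomerase II alpha, read 8.41 in vehicle cells, 8.83 with tofacitinib and 7.49 with Compound C, and 8.49 and 7.61 with GSK 690693 and doxorubicin, a difference of 1.34. Kif23, a kinesin of cytokinesis, and Cenpi, a centromere protein gene, differed by 1.44 and 1.45. Of the 2 members on the lower side, Gtse1 encodes a microtubule-binding protein that restrains p53 and read 9.15 on the tofacitinib array against 10.53 on that of Compound C, with vehicle at 9.05, doxorubicin at 7.79 and GSK 690693 at 8.89, a difference of -1.38. Among replication genes, the primase subunit gene Prim1 read 7.71 with tofacitinib and 5.94 with Compound C, beside 7.36 in the vehicle sample, 7.30 under GSK 690693 and 7.11 under doxorubicin, a difference of 1.77. The polymerase alpha subunit gene Pola2, the repair gene Brca2, the cyclin E gene Ccne1 and the replicative helicase gene Cdc45 differed by 1.47, 1.31, 1.23 and 1.17. Ribosome biogenesis and MYC genes leaned the same way, with 14 of 48 at least 1.5-fold higher, 2 lower and a median of 0.28. That median lay 0.2 above that of all tested genes and was not called apart. With centring it was 0.04, beside -0.15 for all tested genes. Among all tested genes 15.3% were higher and 5.5% lower. The RNA polymerase I subunit gene Polr1b differed by 1.37.

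Among p53, FOXO and ATF4 genes, more members read lower than higher with tofacitinib. Of 42 tested p53 target genes, 15 read at least 1.5-fold lower with tofacitinib and 1 higher, against 5.5% and 15.3% of all tested genes, and the median was -0.33. The list's median difference from vehicle was 0.04 with tofacitinib and 0.26 with Compound C. Perp, a p53 target involved in cell death, read 8.53 under Compound C and 7.06 under tofacitinib, while vehicle gave 6.76, GSK 690693 7.03 and doxorubicin 7.67, a difference of -1.47. The thiamine transporter gene Slc19a2, the death receptor gene Eda2r and the translesion polymerase gene Polk differed by -1.49, -1.40 and -1.34. For these 4 genes Compound C was the highest array, which their choice by wide gaps favours, and tofacitinib lay within 0.30 of vehicle. Over the whole list Compound C alone was highest for 19 of 42 members, beside 18.4% of all tested genes. Among 31 FOXO and insulin feedback genes, 6 lay at least 1.5-fold lower and 3 higher, around a median of -0.36. Foxo3 differed by -1.45, Ypel2 by -1.69 and Irs2, the insulin receptor substrate gene, by -1.49.

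For the amino acid stress genes driven by ATF4 the median was -0.27. Of 42 tested, 13 lay at least 1.5-fold lower with tofacitinib and 1 higher, against 5.5% and 15.3% of all tested genes. Ppp1r15a, which encodes the GADD34 phosphatase subunit, read 6.66 in vehicle cells, 6.70 with tofacitinib and 8.16 with Compound C, and 6.90 and 6.0 with GSK 690693 and doxorubicin, a difference of -1.46. Sesn2, a sestrin that restrains mTORC1, and Cebpb, a transcription factor gene, differed by -1.24 and -1.09. The cystine transporter gene Slc7a11 differed by -1.09 on the probe set used and by -0.14 on another. Cebpd and Atf3 are on this list as well as on the JAK-STAT and immediate early lists, so the lists are not separate sets. The ATF4 element TGATGNAAT, searched on both strands, occurred in 2 of 34 list members with a promoter entry, or 5.88%, and in 0.557% of the tested genes with an entry. It occurred in 0 of the 11 lower members with an entry.

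Cholesterol and fatty acid synthesis genes gave 11 of 36 at least 1.5-fold lower and 2 higher with tofacitinib, beside 5.5% and 15.3% of all tested genes, with a median of -0.09 that was not called apart. Lpin1, a phosphatidate phosphatase gene, read 7.35 on the tofacitinib array against 9.37 on that of Compound C, with vehicle at 7.41, doxorubicin at 6.95 and GSK 690693 at 7.50, a difference of -2.02. Insig1, a sterol-regulated brake on SREBP, read 9.53 with tofacitinib and 10.89 with Compound C, beside 9.21 in the vehicle sample, 10.23 under GSK 690693 and 8.69 under doxorubicin, a difference of -1.36. The sterol enzymes Sqle and Cyp51 differed by -1.19 and -1.16, and the sterol carrier gene Stard4 by -1.13. Compound C gave the highest value of the 5 for each of these 5 genes, which their choice by wide gaps favours. Over the whole list it was alone highest for 15 of 36 members, beside 18.4% of all tested genes. The sterol element TCACNCCAC, searched on both strands, occurred in 1 of 29 list members with an entry, one of the 7 lower members, and in 1.46% of the tested genes with an entry. Of 53 lysosome and autophagy genes, 6 passed 1.5-fold on the lower side and 0 on the higher, with the folliculin partner gene Fnip2 at -1.18. Of 26 tested NRF2 genes, 3 read lower, with heme oxygenase gene Hmox1 at -1.44, and of 33 glycolysis and hypoxia genes 8 read lower and 2 higher, with Ndrg1 at -1.08.

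Of 45 tested immediate early and MAP kinase feedback genes, 8 read at least 1.5-fold higher and 11 lower with tofacitinib, and the median was -0.16. The higher count is near the 15.3% of all tested genes, while the lower one is well above the 5.5%. The orphan nuclear receptor gene Nr4a1 read 10.23 under Compound C and 8.54 under tofacitinib, while vehicle gave 8.42, GSK 690693 7.72 and doxorubicin 7.59, a difference of -1.69. Nr4a2 and Nr4a3 differed by -1.82 and -1.75, so all 3 family members read higher with Compound C. Fos, an AP-1 subunit gene, differed by -1.54. Hbegf, the gene of an EGF receptor ligand, was on the other side at 1.55, with 8.35 on the Compound C array and 9.90 on the tofacitinib array.

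Of 31 tested NF-kB subunit and target genes, 5 passed 1.5-fold on each side of a median of 0.08, near the 15.3% of all tested genes on the higher side and above the 5.5% on the lower. Icam1, the leukocyte adhesion molecule gene, read 8.03 in vehicle cells, 8.04 with tofacitinib and 9.33 with Compound C, and 8.04 and 9.26 with GSK 690693 and doxorubicin, a difference of -1.29. The kinase gene Map3k8 and the IkB family gene Bcl3 differed by -1.37 and -1.09, and Birc2, a ubiquitin ligase gene, by 1.34. For Bcl3 vehicle lay beside Compound C, at 8.45 and 8.54, and tofacitinib read 7.45. Matrix and YAP target genes gave 4 of 40 higher and 3 lower. Has2, the hyaluronan synthase gene, read 9.82 on the tofacitinib array against 7.68 on that of Compound C, with vehicle at 10.26, doxorubicin at 8.46 and GSK 690693 at 9.21, a difference of 2.14. Ccn2, a matricellular protein gene, differed by 1.73 on the probe set used, while another, dimmer probe set read 4.71 with Compound C and 4.59 with tofacitinib.

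**Figure D5:**
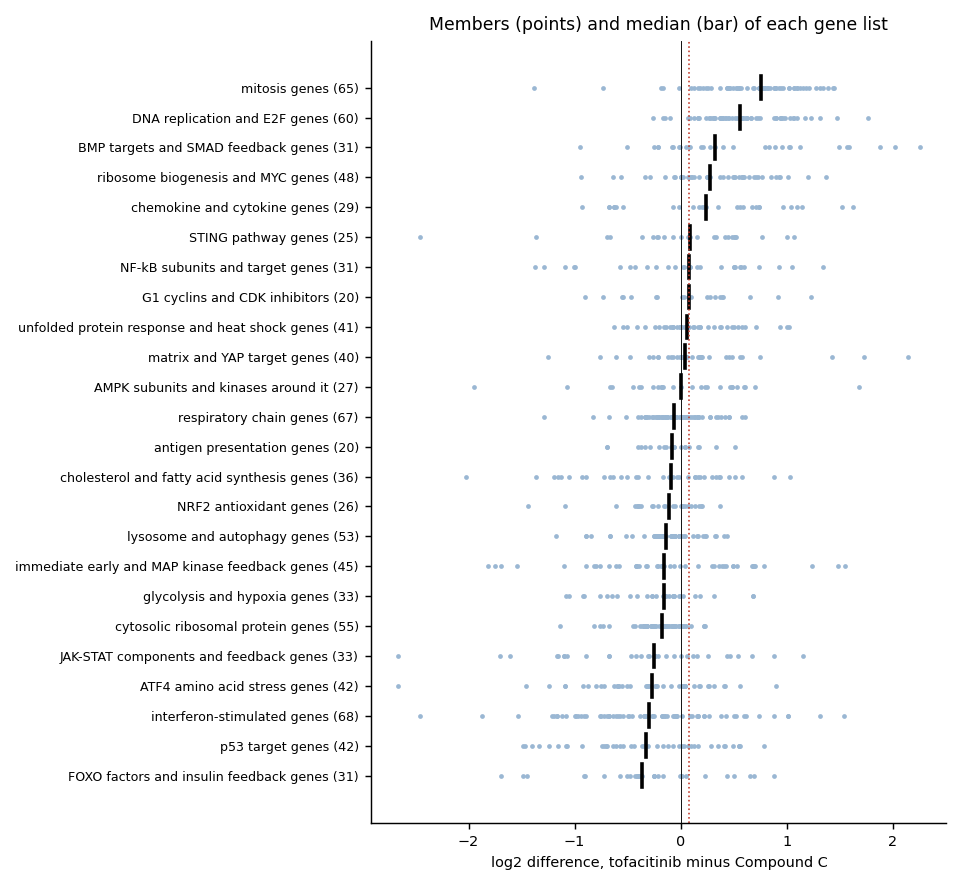
For each of 24 gene lists, points give the log2 difference, tofacitinib minus Compound C, of each tested member, bars the list median and the number in brackets the tested members. The dotted line is the median of all tested genes, 0.08, which would move to -0.15 with the points if each array were centred. Mitosis genes at 0.76 and replication genes at 0.56 stand highest, and FOXO genes at -0.36 lowest.

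The remaining lists are given beside all tested genes, of which 15.3% read at least 1.5-fold higher with tofacitinib and 5.5% lower. Antigen presentation genes gave 0 higher and 2 lower of 20, unfolded protein response and heat shock genes 5 and 1 of 41, and G1 cyclins and CDK inhibitors 3 and 2 of 20. Cd274, which encodes the checkpoint ligand PD-L1, was among the lower antigen presentation genes, at 7.21 with Compound C, 6.52 with tofacitinib and 7.79 with vehicle. For cytosolic ribosomal protein genes the median was -0.18 (0 higher and 5 lower of 55), which is 0.26 below that of all genes and was called apart, a call lost with quantile normalization, with no filter and with 16 signal units added. For respiratory chain genes it was -0.06 (1 and 3 of 67). Rps18 and the ATP synthase gene Atp5d led these lists at -1.14 and -1.29, but another probe set gave 0.04 for Rps18 and -0.15 for Atp5d.

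The largest single differences were mostly genes on no list. Eid3, which encodes a relative of an SMC5/6 complex subunit, read 5.59 with tofacitinib and 9.81 with Compound C, beside 5.47 in the vehicle sample, 5.63 under GSK 690693 and 5.06 under doxorubicin. Compound C stood alone, and the difference of -4.22 was 18.6-fold. Tmem236, a membrane protein gene, read 7.87 under Compound C and 4.39 under tofacitinib, while vehicle gave 4.95, GSK 690693 4.55 and doxorubicin 5.0, a difference of -3.48, with the other 4 values below the array median. Csnka2ip, Tbc1d8 and Grhl3 differed by -3.05, -2.58 and -2.38, also with Compound C alone high. Tbc1d8 read 8.38 on the Compound C array and 5.30 to 6.22 on the others. For Csnka2ip and Grhl3, as for Tmem236, the other 4 values lay below the array median. These genes thus passed the filter only through the Compound C array. Kitl, the gene for stem cell factor, Cry2, a circadian repressor gene, and the potassium channel subunit gene Kcne4 differed by -1.99, -1.94 and -1.91.

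At the upper end, Rgs4, a regulator of G-protein signalling, read 7.54 in vehicle cells, 8.09 with tofacitinib and 4.83 with Compound C, and 7.25 and 5.72 with GSK 690693 and doxorubicin, a difference of 3.26 or 9.58-fold. Tasor, which encodes a part of the HUSH complex that silences retroelements, read 8.21 on the tofacitinib array against 5.33 on that of Compound C, with vehicle at 8.17, doxorubicin at 6.97 and GSK 690693 at 8.12, a difference of 2.88. Compound C gave the lowest value for both. Gtf2b, the general transcription factor TFIIB gene, Ccn4, a matricellular protein gene, and Ppp1r10, a phosphatase subunit gene, differed by 2.12, 2.15 and 2.08. Heatr3, Plekhg2, Fjx1, Ankrd49 and Fam136a differed by 2.01 to 2.09. Psmg2, a proteasome assembly chaperone gene, differed by 2.49 on the probe set used and 0.01 on another that read 2.30 to 2.4. The histone gene H2ac20 read 6.2 with tofacitinib and 3.89 with Compound C, beside 5.08 in the vehicle sample, 5.86 under GSK 690693 and 3.0 under doxorubicin, a difference of 2.31 that became 1.54 with 16 signal units added before the log.

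Of the genes for which vehicle lay beside Compound C, the highest with tofacitinib were Ranbp6, Nup133, Prkdc, Cx3cl1 and Dgat1. They differed by 1.29, 1.27, 1.17, 1.14 and 1.14, and tofacitinib lay 0.67 to 0.83 above vehicle for each. Ranbp6 and Nup133 encode a nuclear transport receptor and a nuclear pore protein, Prkdc the DNA-dependent protein kinase and Dgat1 a triglyceride synthesis enzyme. On the lower side of that class, Usp18, Osmr and Mx2 were followed by Atp5d and by Rtn4r, a Nogo receptor gene, at -1.26.

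MicroRNA loci fell outside the rule for named genes and were picked after their values were seen. Whole-transcript labelling reads RNA from the hairpin locus, so mature microRNA was not measured. Of 97 tested loci, 9 read at least 2-fold higher and 5 lower with tofacitinib, where 4.55% and 1.52% of all tested genes did. The filter helped to set these counts. The lower loci Mir181b-1, Mir181a-1, Mir1983 and Mir34a passed it only through the Compound C array, where they read high. On the higher side, Mir382 passed it only through the tofacitinib array. No conclusion is therefore drawn from the counts beside the shares. The widest gaps came from neighbouring loci on chromosome 1. Mir181b-1 at chr1:137966639-137966718 read 7.68 under Compound C and 3.77 under tofacitinib, while vehicle gave 3.62, GSK 690693 4.08 and doxorubicin 3.26, a difference of -3.91. Mir181a-1 at chr1:137966455-137966541 read 2.15 in vehicle cells, 2.23 with tofacitinib and 5.91 with Compound C, and 1.84 and 2.13 with GSK 690693 and doxorubicin, a difference of -3.68. Compound C alone stood above the array median for both. Mir34a, whose host transcript is a known p53 target, at chr4:150068454-150068555, read 5.65 with Compound C, 3.71 with tofacitinib and 4.06 with vehicle. The mature sequences below have the seed, bases 2 to 8, in capitals, and are from RefSeq on GRCm38.p6, plus strand. They are shown because those of the neighbouring loci, miR-181a-5p and miR-181b-5p, share a seed. The seed of miR-34a-5p differs.
mmu-miR-181a-5p: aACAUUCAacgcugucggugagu
mmu-miR-181b-5p: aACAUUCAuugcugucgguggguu
mmu-miR-34a-5p: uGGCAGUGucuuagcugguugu
Of the 9 higher loci, 6 lay together at chr12:109713481-109735700, a span of 22220 bases in which no other microRNA locus was tested. Mir300 read 5.56 on the tofacitinib array against 3.36 on that of Compound C, with vehicle at 5.92, doxorubicin at 2.74 and GSK 690693 at 4.64, a difference of 2.20. Mir453 differed by 2.14, and Mir382, Mir329, Mir667 and Mir679 by 1.39, 1.21, 1.13 and 1.08. The median difference of the 6 loci from vehicle was -0.18 with tofacitinib, -0.99 with GSK 690693, -1.76 with Compound C and -2.29 with doxorubicin.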

How the data were processed

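The deposited values are log2 signals of probe sets on 5 arrays, made by the authors with Affymetrix Expression Console 1.3.1.187 per the submitters' processing notes. How probe sets were summarised, background-corrected and normalized is not stated in the labels, and the log base was inferred from the values, which ran from 1.05 to 13.18. A normalization between arrays would remove a shift shared by most genes. No detection calls entered, so dim probe sets may hold background signal only. The number of arrays limits the precision. The labels name no culture, batch or scan, so none was checked.

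All value columns of the 41345 probe sets were used. By the platform annotation, 23521 probe sets had 1 symbol, 1814 several and 16010 none, and only the first were named. Of these, 23328 had an Entrez identifier in RefSeq GRCm38.p6, used for newer symbols. Where a gene had several probe sets (1082 of 22180 genes), the one with the highest mean was used. A gene was tested if any of its 5 values reached that array's median over single-symbol probe sets (5.37 to 5.44). Differences are tofacitinib minus Compound C in log2 signal. They were counted at 2-fold over all genes and 1.5-fold in lists, and a list was called apart where its median lay 0.25 or more from that of all tested genes. Vehicle counted as near an array within 0.5. The members and lists were chosen with earlier results of these data known. The 30 lists held 1191 entries, of which 1079 matched, 7 of them through another symbol.

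Genes were named by rule. It takes the 15 largest differences each way (small RNA and predicted genes left out), the 5 largest each way in each class of vehicle position, the 5 largest in each list and a fixed set of 20 signalling genes. Genes named beyond it are said to be so. RefSeq promoter entries reach 250 bases before and 50 after the start. Alternatives were median centring, quantile normalization, other filters, the mean of probe sets, 16 signal units added before the log, and other thresholds. The counting step was tested on simulated data. Python 3.11.15, NumPy 2.4.6, pandas 2.3.3 and matplotlib 3.10.9 were used.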

Additional observations from a re-analysis of the deposited data

Results flagged for a closer look

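Probe sets outside the named genes also differed between tofacitinib and Compound C. Among 4847 probe sets with no symbol that passed the same filter, 208 were higher and 242 lower with tofacitinib by 2-fold or more, 9.28% in all. Among 913 with several symbols, 37 read higher and 20 lower, or 6.24%. Of the tested genes with a probe set of their own, 6.07% passed 2-fold, 4.55% higher and 1.52% lower. The share for several symbols is thus near that of the tested genes.

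In Cebpd and H2ac20 both compounds read at least 2-fold away from vehicle on opposite sides. Tofacitinib minus Compound C was -2.67 for Cebpd, with Compound C above vehicle, and 2.31 for H2ac20, with Compound C below vehicle. With 1 array each, these differences were not tested. For H2ac20, the Compound C value of 3.89 and the vehicle value of 5.08 lay below the array medians of 5.37 to 5.44, and so did the tofacitinib value of 4.52 for Cebpd. With 16 signal units added before the log, the differences were -2.06 for Cebpd and 1.54 for H2ac20.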

How the results depend on the processing

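No paired analysis was possible because each group holds 1 array, and leaving out an array would leave no comparison. The 561 genes at least 2-fold higher became 252 with median centring, 359 with quantile normalization and 334 with 16 signal units added, and 1888 at 1.5-fold and 69 at 3-fold. The 187 lower genes became 356 with centring, 677 at 1.5-fold and 40 at 3-fold. With vehicle counted as near within 0.25, it was near tofacitinib for 305 genes, near Compound C for 11, between for 379 and outside for 53. At 0.75, 7 lay between, 6 outside and 140 near both arrays, and with centring 20 lay outside.

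Of 144 list medians under alternatives, 129 kept their call and 0 reversed. Lists that became called apart were BMP genes without a filter (0.28), with both arrays at their median (0.36) and with the mean of probe sets (0.32), immediate early genes with quantile normalization (-0.26) and both arrays at their median (-0.16), sterol genes with quantile normalization (-0.28), glycolysis genes with both arrays at their median (-0.16) and the mean of probe sets (-0.23), and ribosome biogenesis genes with quantile normalization (0.26) and no filter (0.27). Calls were lost without a filter for ATF4 (-0.24), FOXO (-0.25) and ribosomal protein genes (-0.18), and for the last also with quantile normalization (-0.21) and added units (-0.17). Of the 182 named genes, 25 moved by 0.258 or more with 16 units added, and 5 of these by over 1.5-fold, to -2.76 for Tmem236, -1.97 for Csnka2ip, -1.78 for Grhl3, -2.06 for Cebpd and 1.54 for H2ac20. The mean of probe sets moved 6, of which Ccn2 to 0.8 and Rps18 to -0.47 by over 1.5-fold. Filters cannot move a gene's value, and centring moves each by the same 0.23. The cause of these shifts was not tested. Signal over background is unknown, so differences in dim genes such as Csnka2ip, Mir181a-1 and Mir181b-1 rest on values below the array median on all arrays but 1.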
